A study of Homo sapiens with 6 samples.

Results

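Untreated SCC25 cells were described from 3 arrays, control replicates 1 to 3, of the 6 arrays in the series. SCC25 is an established line from an oral squamous cell carcinoma. The control cells received no drug and were grown for 72 h before total RNA was taken. The other 3 arrays were hybridised with RNA of SCC25 cells given 2.0 mM aspirin for the same time. They entered the normalization between arrays, the choice of genes kept and the choice of genes used to estimate the background. Control replicates 1 and 3 lay on chip 1 and replicate 2 on chip 2. Nothing in the labels says that the replicates were separate cultures, so the spread between them may be technical.

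Squamous epithelium is built from basal keratinocytes, which divide on a basement membrane and hold keratins 5 and 14, and from cells above them that change their keratins, make envelope proteins and leave the cycle. Hemidesmosomes fix the basal cells to laminin and desmosomes join the cells to one another. Carcinomas of this tissue keep the plan to differing degrees, and p63, the EGF receptor and cyclin D1 are among the proteins most studied in them.

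For each array a gene's signal was divided by the mean background of that array, and the quotient is given below as times background, always for replicates 1, 2 and 3 in this order. The background means were 104.9, 115.7 and 100.6 intensity units. A gene was called detected where its deposited detection score exceeded 0.95 on all 3 arrays, the score being 1 minus the p-value against the array's negative controls. Of 34693 genes, 12388 (35.7%) were detected. A further 1046 (3.02%) had a signal over the background mean plus 3 SD on all 3 arrays but a lower score. They are called above background by signal alone, and the cause of their lower scores was not tested. By signal in place of the score, 11673 genes (33.6%) passed on all 3 arrays. 16560 genes (47.7%) passed neither measure on any array and are called silent, and 4699 (13.5%) passed on some arrays. On all 3 arrays 7290 genes (21.0%) exceeded 2 times background, 1870 (5.39%) exceeded 10 times and 41 (0.118%) exceeded 100 times.

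Probes bind their targets with unequal strength, so times background does not order genes by their RNA. A silent gene is one whose probes gave no signal, and whether a probe failed was not tested. The scores of 79.7% of the genes were whole multiples of 1 in 770. Such a gene without RNA passes the score on an array with a probability of 0.05, and for the other genes the rate was not tested. A signal of up to about 1.2 times background is thus weak ground for expression.

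Replicate 1 stood apart from the other control arrays. Across all genes its log2 normalized signal correlated at r = 0.985 with replicate 2 and 0.987 with replicate 3, while replicates 2 and 3 correlated at r = 0.993. The median SD of a detected gene over the 3 arrays was 0.18 on the log2 scale, against 0.12 without replicate 1, 0.15 without replicate 2 and 0.18 without replicate 3. Of 40 detected genes with a range over 2 log2 units, all 40 had replicate 1 as the array farthest from the others. Values are therefore given for each array. On replicates 2 and 3 alone 13263 genes were detected, against 12388 on all 3 arrays. A call over fewer arrays can only keep or raise a count. The count was 13041 without replicate 2 and 12986 without replicate 3, so such rises do not by themselves set replicate 1 apart. Among the lists described below, the detected members numbered 12 of the basement membrane zone without replicate 1, against 11 with it, 24 receptor tyrosine kinases against 22, 18 nuclear receptors against 17 and 28 cytokine and death receptors against 27. They numbered 27 oncogenes and tumour suppressors against 26 and 33 genes of glucose metabolism against 31. There were 21 of lipid and amino acid metabolism against 19, 26 of xenobiotic metabolism against 24 and 24 HOX genes against 21. Without replicate 2 the oncogenes and tumour suppressors numbered 30 and the nuclear receptors 19, while the HOX genes stayed at 21.

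The label of an oral squamous line was set beside lineage genes and markers of other cell types. These lists were chosen with earlier results of these data known, so their counts describe the cells and do not check the label. 18 of 22 squamous transcription factors were detected, or 81.8%, beside 35.7% of all genes. Of 93 markers of leukocytes, fibroblasts, endothelial cells, neurons, muscle, hepatocytes, melanocytes, gland and intestine, 13 were detected and 63 were silent. Of all genes 35.7% were detected and 47.7% were silent. The detected share was 33.3% of 12 fibroblast markers and 30.0% of 10 neuronal markers, near the 35.7% of all genes. Of 18 leukocyte markers it was 22.2%, and the 4 detected ones were CD14, CD68, CD79A and FCGR3A, the last pair at no more than 1.12 times background. Of 14 gland and intestine markers 1 was detected and of 10 endothelial markers 1. None of 11 muscle, 10 hepatocyte and 8 melanocyte markers was detected on all 3 arrays. The leukocyte genes PTPRC and CD3D were silent.

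**Figure D1:**
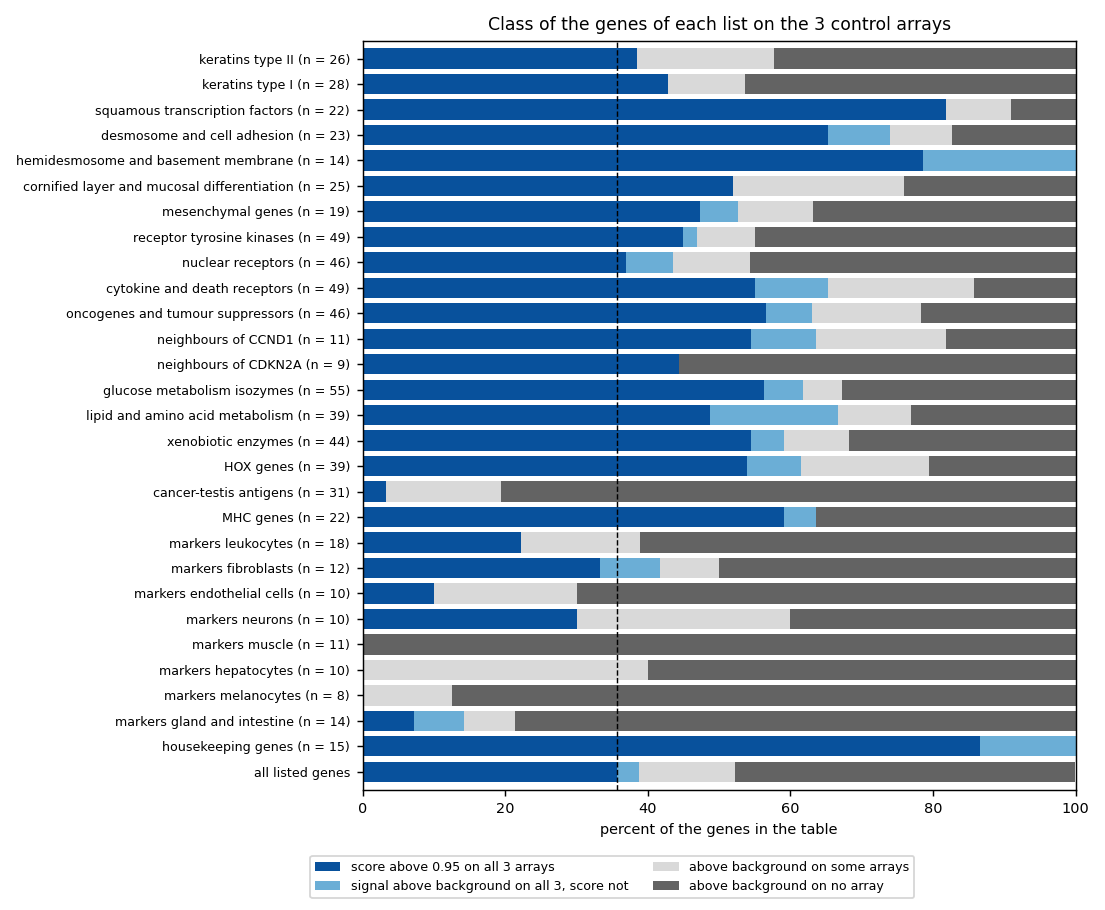
Each bar divides the genes of a list into those with a score above 0.95 on all 3 control arrays, those above background by signal alone, those above background on some arrays and those silent, as percent of the list's genes in the table. The dashed line marks 35.7%, the detected share of all listed genes. The squamous factors and the hemidesmosome and housekeeping lists lie far to the right of it, and the muscle list is wholly silent, followed by the melanocyte list at 87.5% and the cancer-testis list at 80.6% silent.

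The promoters of KRT5 and PITX1 are shown because both genes were detected on all 3 arrays and stand for the keratin and transcription factor lists. KRT5 encodes the basal type II keratin and PITX1 a homeobox factor of the embryonic mouth and hindlimb. Both sequences are the 250 bases before the transcript start in RefSeq on GRCh38.p14, from 5′ to 3′, with CpG pairs in capitals. KRT5 lies on the minus strand at chr12:52520395-52520644 and PITX1 on the minus strand at chr5:135034229-135034478.
KRT5: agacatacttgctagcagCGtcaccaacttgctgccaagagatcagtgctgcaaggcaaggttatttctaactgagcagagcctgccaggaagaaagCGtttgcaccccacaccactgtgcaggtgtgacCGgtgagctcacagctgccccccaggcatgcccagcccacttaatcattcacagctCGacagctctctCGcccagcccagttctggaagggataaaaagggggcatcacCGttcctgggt
PITX1: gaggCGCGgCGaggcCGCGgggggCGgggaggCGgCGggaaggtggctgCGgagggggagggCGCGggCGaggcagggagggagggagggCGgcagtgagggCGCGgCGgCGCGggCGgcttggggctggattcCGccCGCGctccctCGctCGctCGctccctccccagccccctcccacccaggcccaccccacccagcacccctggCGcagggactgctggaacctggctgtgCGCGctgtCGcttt
There were 6 CpG pairs in the KRT5 stretch and 29 in that of PITX1. In the 300-base windows, which reach 50 bases past the start, the CpG content was 0.301 and 0.795 of that expected from the base composition. A window with at least 0.6 of the expected CpG content and 50% G and C was found in 46.9% of all 35116 RefSeq windows. A comparison of promoters between detected and silent genes was void, because only 69.6% of the detected and 74.5% of the silent list members had a promoter in the table, below the 80% set as the minimum.

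Keratins are intermediate filament proteins that pair as type I with type II. Of 54 keratin genes, 22 were detected and 24 were silent, a detected share of 40.7% beside 35.7% of all genes. The silent share was 46.4% of 28 type I and 42.3% of 26 type II keratins, near the 47.7% of all genes. The silent keratins lay between 0.883 and 1.08 times background. KRT5 stood at 94.2, 89.3 and 69.4 times background. Its type I partner KRT14 stood at 109, 101 and 94.5 times background. All 3 arrays were high for both basal keratins, with replicate 3 the lowest.

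KRT6A, KRT6B, KRT6C, KRT16 and KRT17 are keratins of wounded or fast-growing epithelium. KRT6A gave 132, 122 and 125 times background. KRT6B gave 47.7, 44.8 and 40.1 and KRT6C 99.7, 79.95 and 75.0 times background. For KRT17 the signal was 107, 115 and 104 times background, and for each of these 4 genes every array was far above background. KRT16 reached 82.6, 33.7 and 40.6 times background, so replicate 1 was far above the other arrays. The KRT6 genes are nearly identical, as are KRT14, KRT16 and KRT17 over much of their length, so their probes may share signal and single values are uncertain.

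KRT19, a keratin of simple and basal mucosal epithelium, had 27.5, 13.1 and 16.4 times background. KRT15, another basal keratin, had 7.58, 5.79 and 6.01 times background. Both were highest on replicate 1. Among keratins of simple epithelia, KRT7 had 6.25, 8.22 and 11.4 times background. KRT8 had 3.45, 5.96 and 6.20 times background, and like KRT7 it was lowest on replicate 1. KRT18, the usual partner of KRT8, was detected at 1.37, 1.34 and 1.30 times background.

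The keratins of the layers above the basal one differed between the arrays. KRT13, the type I keratin of the mucosal suprabasal layers, had 22.1, 10.3 and 9.97 times background. Its partner KRT4 had 3.91, 0.968 and 0.998 times background. KRT10, the type I keratin of suprabasal epidermis, had 18.1, 9.58 and 8.13 times background, and its partner KRT1 had 6.22, 1.00 and 1.01. KRT1 and KRT4 were thus above background on replicate 1 alone, and KRT10 and KRT13 were above background on all 3 arrays and highest on replicate 1. In RNA of whole cultures, fewer cells of a type and less RNA per cell cannot be told apart.

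The 17 hair keratins of both types held 4 detected members (23.5%, beside 35.7% of all genes) and 11 silent ones, beside 47.7% of all genes. KRT34 had 1.85, 10.96 and 9.11 times background. KRT81 had 1.18, 3.19 and 3.08 times background, and both were lowest on replicate 1. KRT86 had 1.15, 2.52 and 2.11 times background, and it cannot be kept apart from KRT81 with certainty because their sequences are close. KRT31, the remaining detected member, stood at 1.30, 1.46 and 1.37 times background. KRT80, an epithelial type II keratin that is no hair keratin, had 1.85, 3.04 and 3.00 times background. KRT20 of intestine, KRT12 and KRT3 of cornea, KRT2 of upper epidermis and KRT76 of palate were silent. So were the hair follicle sheath keratins KRT25 to KRT28, KRT71 and KRT72, but not every follicle keratin. KRT73 and KRT74 passed on 1 array each, and KRT75 was detected at 1.67, 1.87 and 1.91 times background.

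In the order of the genes along the chromosome, taken from RefSeq, many detected keratins lay side by side, but not all. KRT24, beside the silent KRT25, and KRT10, between the silent KRT28 and KRT12, had no detected neighbour. Whether detected keratins were neighbours more often than by chance was not tested. In the type II cluster KRT75, KRT6B, KRT6C, KRT6A and KRT5 were neighbours and all 5 were detected. Before them stood the silent hair keratins KRT83, KRT85, KRT84 and KRT82, and after them the silent KRT71. In the type I cluster the last 7 keratins, KRT13, KRT15, KRT19, KRT9, KRT14, KRT16 and KRT17, were all detected. KRT9 of palm and sole skin gave 1.78, 2.03 and 1.78 times background within that run. KRT8 and KRT18 lie side by side at the end of the type II cluster, although KRT18 is a type I keratin.

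**Figure D2:**
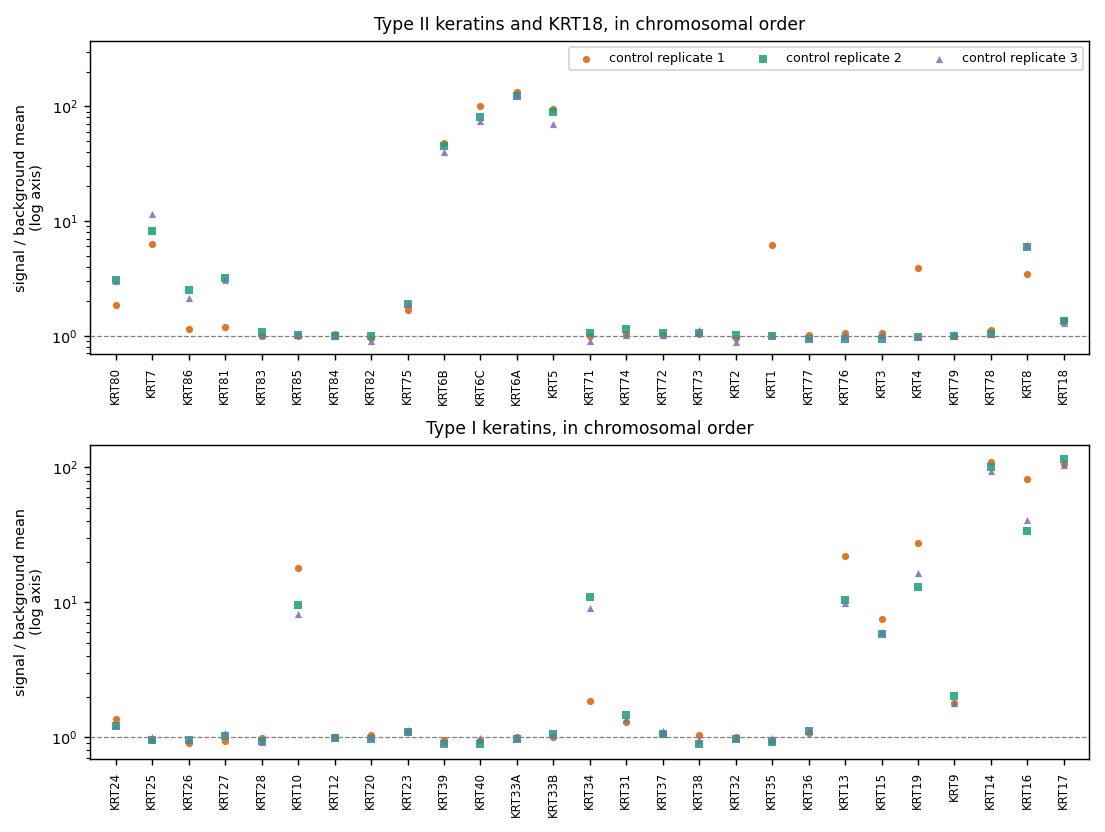
Signal over the mean background is plotted on a log axis for 54 keratins, each point 1 control array, with genes in chromosomal order and the dashed line at background. KRT5 and the KRT6 genes form a block in the upper panel and KRT13 to KRT17 one in the lower panel, and KRT1, KRT4, KRT34 and KRT16 show replicate 1 apart from the other arrays.

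Transcription factors of the squamous lineage were above background on all 3 arrays in 18 of 22 cases. TP63, the master regulator of stratified epithelium, had 28.4, 35.8 and 33.9 times background. PITX1, whose promoter is shown above, had 35.3, 29.1 and 25.3 times background. SOX15, a SOX factor, had 25.2, 18.1 and 18.8 times background. No array was near background for any of these 3 genes, and they alone of the list exceeded 10 times background on every array.

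TFAP2A, an AP-2 factor of surface ectoderm, had 6.65, 5.58 and 6.07 times background, and its relative TFAP2C 4.35, 5.94 and 4.72. The ETS factor EHF had 6.13, 6.37 and 5.43 times background. ELF3, of the same family, had 1.85, 1.63 and 1.58 times background. KLF4, a factor of barrier formation, had 4.14, 4.52 and 5.78 times background. KLF5, a factor of proliferating epithelium, had 2.33, 2.37 and 2.16 times background. OVOL2, a repressor that keeps cells epithelial, had 5.70, 6.30 and 4.44 times background. GRHL2, a grainyhead factor of epithelial junctions, had 3.00, 3.29 and 2.73 times background, whereas GRHL3 of the barrier passed on some arrays only, at 1.07, 1.01 and 1.02.

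SOX2, a factor of the foregut and of squamous carcinomas, had 2.09, 1.63 and 1.73 times background. PAX9, a factor of oral and pharyngeal epithelium, had 4.94, 3.81 and 3.51 times background and was highest on replicate 1. BNC1, basonuclin of basal keratinocytes, had 3.70, 5.58 and 4.998 times background and was lowest on replicate 1. ZNF750, a p63 target of late differentiation, had 2.28, 1.24 and 1.29 times background, so replicates 2 and 3 were barely above it. FOXE1, a forkhead factor of thyroid and oral epithelium, had 1.74, 2.04 and 1.72 times background. TP73, a relative of TP63, and FOXN1 were silent.

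Genes of the basement membrane zone were above background without exception among the 14 in the table. Of these, 11 were detected (78.6%, beside 35.7% of all genes) and 3, LAMB3, ITGB1 and COL4A6, were above background by signal alone. COL17A1, the collagen of hemidesmosomes, had 34.97, 57.6 and 44.9 times background. LAMA3, a chain of laminin-332, had 7.28, 11.01 and 10.6 times background. LAMB3, another chain, had 9.37, 16.6 and 16.4 times background. Replicate 1 was the lowest array for these 3 genes.

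ITGA6, the alpha chain of the hemidesmosomal integrin, had 3.08, 3.09 and 2.87 times background, and its beta chain ITGB4 had 4.06, 3.71 and 4.92. ITGA3, the alpha chain of another laminin receptor, had 10.3, 13.1 and 13.0 times background. ITGB1, the beta chain shared by many integrins, had 29.8, 38.4 and 33.9 times background. CD151, a tetraspanin bound to laminin receptors, had 21.0, 24.1 and 21.6 times background. COL7A1, which forms anchoring fibrils, had 16.4, 21.1 and 23.3 times background. None of the 3 arrays was near background for any of these genes.

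Desmosome and junction genes numbered 23 in the table, with 15 detected (65.2%) and 4 silent (17.4%), beside 35.7% and 47.7% of all genes. Another 2 were above background by signal alone. DSG3, the desmoglein of basal layers and mucosa, had 19.5, 11.7 and 11.98 times background. DSG2, the widely expressed desmoglein, had 21.7, 19.3 and 21.7 times background. DSG1, the desmoglein of upper layers, had 1.64, 1.04 and 1.11 times background, and only replicate 1 was clearly above it. DSC2, the desmocollin found in most epithelia, had 11.1, 4.99 and 4.75 times background. DSC3, its counterpart in stratified epithelium, had 10.2, 9.05 and 7.95 times background. DSC1, the desmocollin of upper epidermis, and DSG4 of hair were silent.

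Of the plaque proteins, plakoglobin (JUP) had 13.8, 11.1 and 12.7 times background. Desmoplakin (DSP), which ties desmosomes to keratin, had 7.24, 4.99 and 4.78 times background. PKP1, the plakophilin of stratified epithelium, had 10.3, 9.10 and 8.23 times background by signal alone. PERP, a desmosomal membrane protein and p63 target, had 40.3, 32.1 and 24.8 times background. E-cadherin (CDH1), the cadherin of epithelia, had 25.6, 23.2 and 23.6 times background. P-cadherin (CDH3), which marks basal cells, had 18.8, 28.1 and 28.9 times background and was lowest on replicate 1. EPCAM, an adhesion molecule of simple epithelia and carcinomas, had 17.6, 12.6 and 15.6 times background. CLDN1, a claudin of the epidermal barrier, had 21.8, 28.7 and 21.9 times background, while occludin (OCLN) was silent at 0.988, 0.989 and 1.02.

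Of 25 envelope and late differentiation genes, 13 were detected (52.0%), 6 passed on some arrays and 6 were silent (24.0%), beside 35.7% and 47.7% of all genes detected and silent. Loricrin (LOR) and filaggrin (FLG), which build the epidermal envelope and its matrix, were silent, as were corneodesmosin (CDSN), LCE3D and the mucosal genes CRNN and MAL. Involucrin (IVL), an early envelope protein, had 1.16, 1.06 and 1.07 times background and passed on some arrays. TGM1, the transglutaminase that links the envelope, had 6.96, 8.51 and 5.77 times background. S100A8, a subunit of calprotectin, had 21.8, 31.5 and 27.1 times background. S100A9, the other subunit, had 35.9, 42.8 and 38.2 times background. For these last 3 genes all arrays were clear of background.

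Among members of this list, KRTDAP, SPRR1A, SPRR1B and SBSN were far higher on replicate 1 than on the other arrays. KRTDAP, a secreted protein of differentiating keratinocytes, had 50.6, 1.77 and 1.53 times background. SPRR1A, a small proline-rich envelope protein, had 42.5, 2.70 and 2.29 times background. Its relative SPRR1B, close in sequence, had 10.9, 1.44 and 1.28 times background. SBSN, suprabasin of upper layers, had 6.60, 1.32 and 1.25 times background. Replicate 1 stood at 30.7 times the mean of replicates 2 and 3 for KRTDAP and 17.1 times for SPRR1A, in units of signal over background.

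The promoters of 3 genes that were highest on replicate 1 are shown for the TATAAA motif near their starts, again as the 250 bases before the transcript start in RefSeq on GRCh38.p14, with TATAAA in capitals. KRTDAP lies on the minus strand at chr19:35490465-35490714, SPRR1A on the plus strand at chr1:152983831-152984080 and KRT10 on the minus strand at chr17:40822615-40822864.
KRTDAP: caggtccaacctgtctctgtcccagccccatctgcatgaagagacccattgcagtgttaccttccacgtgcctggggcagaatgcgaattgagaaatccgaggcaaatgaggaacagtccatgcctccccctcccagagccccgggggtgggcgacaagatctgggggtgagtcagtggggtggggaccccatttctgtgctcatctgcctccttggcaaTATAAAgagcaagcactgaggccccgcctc
SPRR1A: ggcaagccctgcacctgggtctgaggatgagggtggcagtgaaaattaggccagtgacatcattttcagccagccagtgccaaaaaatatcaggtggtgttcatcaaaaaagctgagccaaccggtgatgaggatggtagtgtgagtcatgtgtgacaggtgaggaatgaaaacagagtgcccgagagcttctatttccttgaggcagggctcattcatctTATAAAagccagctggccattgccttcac
KRT10: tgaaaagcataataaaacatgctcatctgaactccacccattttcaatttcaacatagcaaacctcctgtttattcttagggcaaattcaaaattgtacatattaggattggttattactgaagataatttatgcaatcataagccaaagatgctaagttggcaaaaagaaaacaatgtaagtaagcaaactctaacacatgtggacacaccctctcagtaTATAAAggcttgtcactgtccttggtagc
The motif TATAAA began 30 bases before the start in KRTDAP and 29 bases before it in SPRR1A and KRT10. On either strand it was present in 11.5% of all 35116 RefSeq windows of 300 bases. These 3 promoters were chosen after the values and the sequences had been seen, so the match is a description only.

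Of 19 mesenchymal genes, 9 were detected on all 3 arrays (47.4%), beside 35.7% of all genes. On replicates 2 and 3 alone 12 were detected, beside 13263 of all 34693 genes. VIM, the intermediate filament of mesenchyme, had 12.6, 30.3 and 32.9 times background. N-cadherin (CDH2), the cadherin of mesenchyme and nerve, had 2.60, 7.79 and 7.38 times background. SNAI2, a zinc finger repressor of E-cadherin that basal keratinocytes also hold, had 11.2, 19.1 and 19.2 times background. TWIST1, a helix-loop-helix factor of mesenchyme, had 1.48, 2.62 and 2.16 times background. All 4 were lowest on replicate 1. The repressors ZEB1, ZEB2 and SNAI1 were silent, as were fibronectin (FN1), SPARC, PRRX1 and periostin (POSTN).

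ACTA2, a smooth muscle actin, had 2.99, 6.505 and 4.92 times background and was lowest on replicate 1. LOX, a collagen cross-linking oxidase, had 29.0, 15.9 and 18.7 times background and ran the other way, with replicate 1 the highest. S100A4, a calcium-binding protein, had 6.60, 3.74 and 3.06 times background and was highest there too.

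Of 12 fibroblast markers, 4 were detected on all 3 arrays (33.3%) and 6 were silent (50%), beside 35.7% and 47.7% of all genes. On replicates 2 and 3 alone 6 were detected, beside 13263 of all 34693 genes. COL1A1, a chain of type I collagen, had 2.01, 3.03 and 2.80 times background. Lumican (LUM), a matrix proteoglycan, had 2.44, 5.21 and 4.51 times background. FAP, a membrane protease of stromal cells, had 1.35, 2.23 and 1.95 times background. The receptors PDGFRA and PDGFRB, THY1, periostin, COL6A3 and DPT were at background. The summed signal of the 12 markers was 15.5, 22.2 and 20.6 times background, lowest on replicate 1 like VIM, CDH2, SNAI2 and TWIST1. Their part in the difference between the arrays was not tested.

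Among detected genes, the 6 with the widest range that were highest on replicate 1 were KRTDAP, SPRR1A, SPRR1B, SBSN, LY6D and FABP4. LY6D, a surface protein of keratinocytes, had 13.0, 2.02 and 1.73 times background. FABP4, a fatty acid carrier best known from fat cells, had 4.74, 1.43 and 1.30 times background. The 6 lowest on replicate 1 were PTGS2, COL22A1, MMP9, KRT34, AMTN and SLFN11. PTGS2, the inducible cyclooxygenase, had 2.08, 17.5 and 14.1 times background. MMP9, a gelatinase, had 2.98, 18.1 and 22.8 times background. COL22A1, a collagen of tissue junctions, had 1.24, 5.51 and 4.33 times background. AMTN, a protein that attaches junctional epithelium to the tooth, had 1.82, 10.4 and 8.95 times background. SLFN11, a factor that blocks stalled replication forks, had 1.36, 5.43 and 5.38 times background. For all 12 genes replicates 2 and 3 lay closer to each other than to replicate 1. These genes were chosen for a wide range with replicate 1 the highest or lowest array, so this is a description only.

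**Figure D3:**
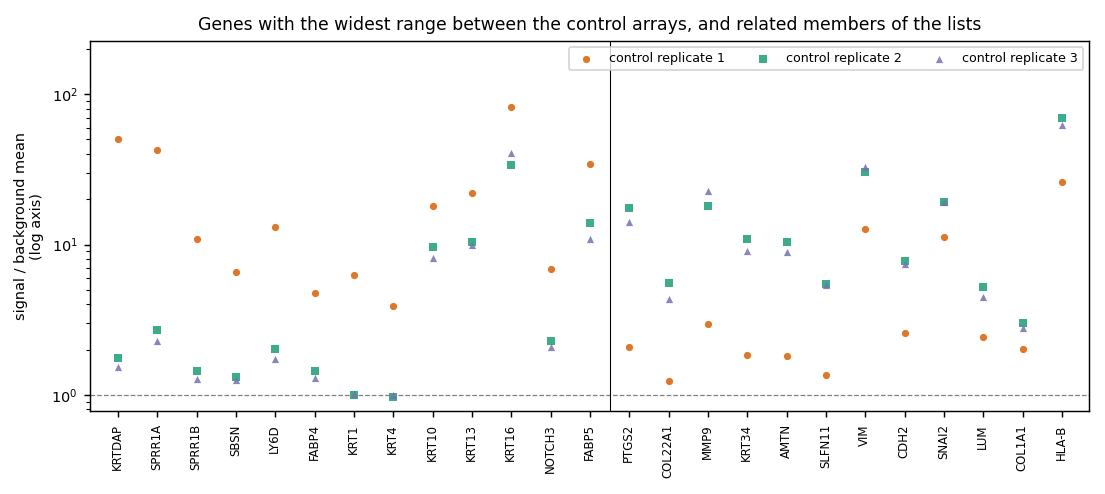
Signal over the mean background on a log axis is plotted for the 3 control arrays, with genes highest on replicate 1 left of the line and genes lowest there right of it, the first 6 on each side being the widest and the rest chosen after their values were seen. KRTDAP stood at 50.6 times background on replicate 1 and below 2 on the others, and PTGS2 stood at 2.08 on replicate 1 against 17.5 and 14.1 on the others.

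Of 49 receptor tyrosine kinases, 22 were detected (44.9%) and 22 were silent (44.9%), beside 35.7% and 47.7% of all genes. Another 1 was above background by signal alone. With a score above 0.99 required, 15 of the 49 were detected, beside 10212 of all 34693 genes. By signal in place of the score 17 passed, beside 11673 of all genes. In both settings the share of these kinases was near that of all genes. None of the 49 exceeded 10 times background on all arrays. EGFR, the receptor for EGF and TGF-alpha, had 4.35, 4.29 and 4.48 times background and was alike on the 3 arrays. ERBB2, its partner without a known ligand, had 1.93, 2.41 and 2.31 times background by signal alone. ERBB3, whose kinase is weak, had 2.17, 2.10 and 1.84 times background. ERBB4 was silent at 0.987, 0.888 and 0.979 times background.

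FGFR3, an FGF receptor, had 8.90, 7.67 and 6.71 times background. FGFR1, the common one of mesenchyme, was silent at 0.972, 0.945 and 0.973 times background. FGFR2, also found in epithelia, was silent at 0.955, 0.987 and 1.06 times background. MET, the receptor for hepatocyte growth factor, had 5.03, 5.47 and 6.36 times background. MST1R, its relative, had 1.88, 1.904 and 2.15 times background. AXL, a receptor for GAS6, had 3.39, 7.47 and 5.83 times background and was lowest on replicate 1.

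EPHA1, a receptor for ephrins on neighbouring cells, had 8.999, 7.14 and 7.08 times background. EPHA2, of the same family, had 1.98, 2.99 and 3.10 times background and was lowest on replicate 1. DDR1, a collagen receptor of epithelia, had 4.48, 4.48 and 4.36 times background, and DDR2, its mesenchymal relative, was silent. RYK, a receptor for Wnt ligands, had 6.20, 7.67 and 6.37 times background. PTK7, a kinase-dead receptor of Wnt signalling, had 4.07, 4.91 and 4.35 times background. IGF1R, the receptor for insulin-like growth factors, had 1.11, 1.22 and 1.17 times background and MERTK, another receptor for GAS6, 1.13, 1.14 and 1.10, both at the edge of detection. Silent receptors included KIT of mast cells and melanocytes, PDGFRA and PDGFRB of stroma, FLT1, KDR, FLT4 and TIE1 of endothelium, FLT3 of blood progenitors and the neurotrophin receptors NTRK2 and NTRK3. TEK, another endothelial receptor, passed the score at 1.11, 1.19 and 1.11 times background.

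In a list of nuclear receptors together with AHR and its partner ARNT, 17 of 46 genes were detected, or 37.0%, close to the 35.7% of all genes. The silent ones numbered 21 (45.7%), also close to the 47.7% of all genes. RXRA, the common partner of many nuclear receptors, had 18.8, 18.4 and 19.5 times background. RXRB, its relative, had 5.47, 9.09 and 6.04 times background. ESRRA, an oestrogen-related receptor of energy metabolism, had 10.5, 7.57 and 7.80 times background. NR2F6, an orphan receptor, had 8.10, 6.26 and 7.25 times background. RARG, the retinoic acid receptor of epidermis, had 1.18, 1.35 and 1.23 times background, whereas RARB was silent. VDR, the vitamin D receptor, had 1.42, 1.49 and 1.30 times background by signal alone.

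The progesterone receptor gene PGR was silent at 0.949, 0.909 and 0.934 times background. ESR1, the oestrogen receptor, passed the score at 1.20, 1.17 and 1.23 times background, near the lower limit. NR3C1, the glucocorticoid receptor, had 1.13, 1.28 and 1.26 times background and passed on some arrays. Liver and gut receptors, namely HNF4A, NR1H4, NR1I2 and NR1I3, were silent. AHR, a receptor for dioxin-like compounds that is of another family, had 7.76, 8.92 and 7.22 times background. Its partner ARNT had 1.49, 1.497 and 1.49 times background.

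**Figure D4:**
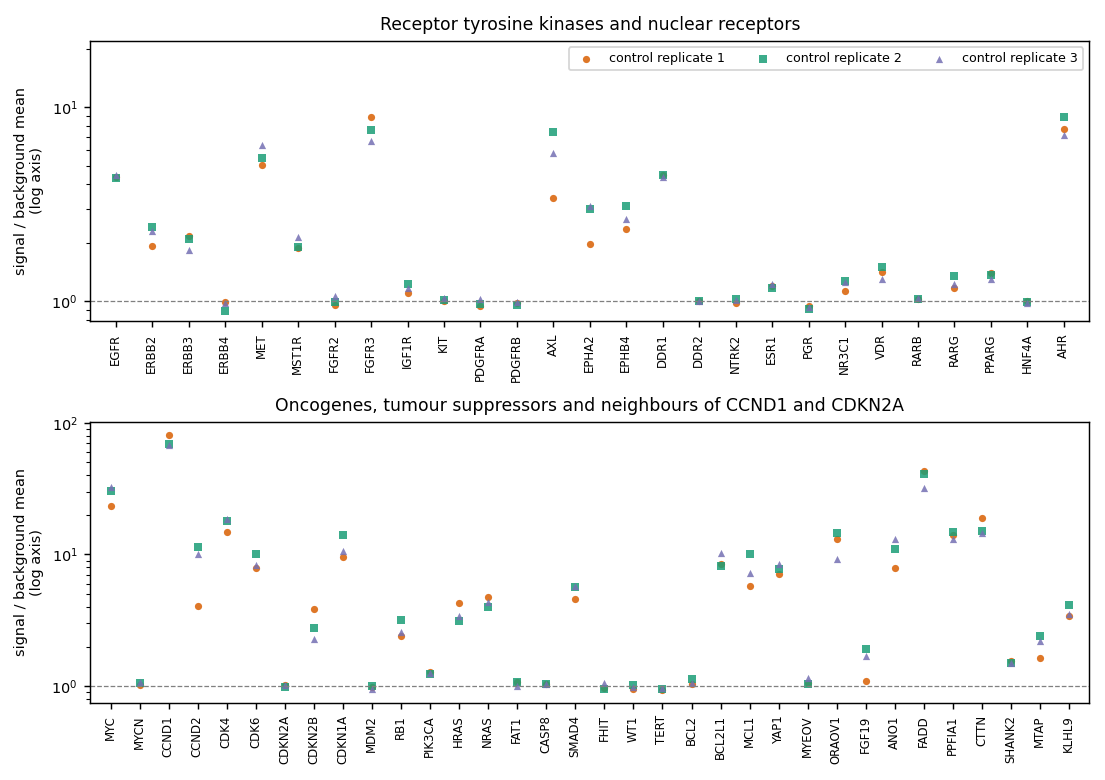
Signal over the mean background on a log axis is plotted for the 3 control arrays, with receptors above and oncogenes, tumour suppressors and their neighbours below. EGFR, MET, FGFR3 and AHR stand clear of the dashed background line while ERBB4, KIT and PGR lie on it, and CCND1 and FADD stand above 30 on all 3 arrays while CDKN2A lies on the line.

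Of 49 genes, mainly receptors of cytokines, death ligands, chemokines and Notch ligands, 27 were detected (55.1%), 5 were above background by signal alone and 7 were silent (14.3%), beside 35.7% and 47.7% of all genes detected and silent. TNFRSF21, a death receptor, had 53.0, 60.0 and 63.9 times background. IL20RB, a chain of the receptors for IL-20 and IL-24, had 44.8, 38.8 and 36.5 times background. TNFRSF12A, the receptor for TWEAK, had 21.1, 17.1 and 17.8 times background. TNFRSF1A, the main TNF receptor, had 11.2, 10.8 and 12.9 times background. These 4 genes were clear of background on every array.

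IFNGR1, a chain of the interferon-gamma receptor, had 18.0, 17.2 and 15.8 times background. IFNGR2, the other chain, had 15.2, 27.7 and 24.0 times background and was lowest on replicate 1. IL13RA1, a chain of the receptor for IL-4 and IL-13, had 6.72, 14.6 and 11.3 times background and was lowest there as well. IL7R, a chain of the receptors for IL-7 and TSLP, had 1.77, 5.88 and 5.42 times background, again lowest on replicate 1.

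CD44, a hyaluronan receptor, had 14.2, 13.4 and 13.6 times background and was alike on the 3 arrays. CXCR7, a scavenging chemokine receptor now named ACKR3, had 23.6, 26.9 and 23.5 times background. CXCR4, which shares its ligand, was near background at 0.947, 0.974 and 1.06. TGFBR2, the ligand-binding TGF-beta receptor, had 4.04, 6.01 and 5.43 times background by signal alone, and TGFBR1 was silent. NOTCH1, a receptor of keratinocyte differentiation, had 3.62, 4.41 and 2.89 times background. NOTCH3, its relative, had 6.88, 2.29 and 2.08 times background and was highest on replicate 1.

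Among 46 oncogenes and tumour suppressors, 26 were detected (56.5%), 3 were above background by signal alone and 10 were silent (21.7%), beside 35.7% and 47.7% of all genes detected and silent. MYC, a growth-promoting transcription factor, had 23.3, 30.1 and 32.6 times background, and its relative MYCN was silent. CCND1, cyclin D1, which helps to start the cell cycle, had 80.8, 69.6 and 67.5 times background. CCND2, cyclin D2, had 4.06, 11.3 and 10.1 times background and was lowest on replicate 1. CCND3, cyclin D3, had 13.8, 20.6 and 14.9 times background. CDK4, a kinase partner of the D cyclins, had 14.7, 17.8 and 18.5 times background, and CDK6, the other, 7.88, 10.1 and 8.37. MYC, CCND1, CCND3 and CDK4 were the members above 10 times background on every array.

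CDKN2A, which encodes the CDK inhibitor p16 and the protein ARF, was silent at 1.03, 0.985 and 1.02 times background. CDKN2B, the adjacent inhibitor p15, was detected at 3.87, 2.75 and 2.28 times background. MTAP, an enzyme of methionine salvage on the other side, was detected at 1.65, 2.38 and 2.21 times background. KLHL9, an adaptor of a ubiquitin ligase beyond MTAP, had 3.38, 4.11 and 3.53 times background. Of the 9 genes taken from this region 4 were detected (44.4%) and 5 were silent (55.6%), beside 35.7% and 47.7% of all genes. Both direct neighbours of CDKN2A thus gave signals on all 3 arrays.

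Some genes beside CCND1 were detected as well. MYEOV, which stands before CCND1 in RefSeq order, passed on some arrays only, with a mean of 1.085 times background. ORAOV1, now named LTO1, follows CCND1 in RefSeq order and had 13.2, 14.6 and 9.27 times background. ANO1, a calcium-activated chloride channel, had 7.89, 10.96 and 13.1 times background. FADD, the adaptor of death receptors, had 42.7, 40.6 and 31.9 times background. PPFIA1, a liprin, had 13.9, 14.8 and 13.1 times background. CTTN, the actin-binding cortactin, had 18.9, 15.2 and 14.6 times background. SHANK2, the last gene taken from the region, was above background by signal alone, with a mean of 1.516 times background. Between ORAOV1 and ANO1 lie FGF19, a secreted growth factor with 1.09, 1.93 and 1.69 times background, and FGF4 and FGF3, both silent. Of 11 genes in the region, CCND1 included, 6 were detected on all 3 arrays (54.5%), beside 35.7% of all genes. On replicates 2 and 3 the detected ones numbered 7, beside 13263 of all 34693 genes. The silent ones numbered 2 (18.2%), beside 47.7% of all genes. DNA copy number was not measured.

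CDKN1A, which encodes the CDK inhibitor p21, had 9.64, 14.0 and 10.7 times background by signal alone. MDM2, a ubiquitin ligase, was silent at 0.989, 1.00 and 0.953. RB1, the retinoblastoma gene, had 2.39, 3.18 and 2.59 times background. HRAS, a small GTPase, had 4.29, 3.14 and 3.41 times background and NRAS 4.79, 4.02 and 4.35. AKT1, a kinase of survival signalling, had 9.27, 11.8 and 11.96 times background.

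JUN, an AP-1 subunit, had 7.35, 15.97 and 13.3 times background and was lowest on replicate 1. BCL2L1, which blocks cell death, had 8.45, 8.23 and 10.2 times background. MCL1, of the same family, had 5.73, 10.1 and 7.27 times background. BCL2 itself passed the score at 1.04, 1.14 and 1.05 times background, no clear distance from background. YAP1, the Hippo pathway coactivator, had 7.16, 7.76 and 8.43 times background. SMAD4, the common factor of TGF-beta signalling, had 4.57, 5.70 and 5.75 times background. TERT, the telomerase subunit, and WT1 were silent, as was CASP8, a caspase of death receptors.

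Genes of glucose metabolism differed by isozyme. Of 55, 31 were detected (56.4%), 3 were above background by signal alone and 18 were silent (32.7%), beside 35.7% and 47.7% of all genes detected and silent. On all 3 arrays 15 exceeded 10 times background, or 27.3% beside 5.39% of all genes. SLC2A1, the glucose transporter of most growing cells, had 49.7, 31.2 and 29.2 times background and was highest on replicate 1. SLC2A2 of liver and SLC2A4 of muscle and fat were silent. HK1, a hexokinase, had 15.1, 13.9 and 13.9 times background by signal alone. HK2, another, had 4.17, 4.08 and 3.90 times background.

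PFKP, a phosphofructokinase, had 12.7, 12.4 and 14.9 times background. ALDOA, the ubiquitous aldolase, had 30.4, 21.5 and 24.2 times background. ALDOC, an aldolase best known from brain, had 8.02, 13.8 and 9.55 times background. TPI1, triose phosphate isomerase, had 61.5, 61.5 and 56.1 times background. GAPDH, the next enzyme of the path, had 78.6, 72.5 and 68.6 times background, and its sperm counterpart GAPDHS was silent. PGK1, phosphoglycerate kinase, had 31.1, 33.8 and 25.9 times background, and its testis counterpart PGK2 was silent. PFKP, ALDOA, ALDOC, TPI1, GAPDH and PGK1 were thus clear of background on every array.

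ENO1, the common enolase, had 99.7, 117 and 109 times background. ENO2 of neurons had 1.45, 1.98 and 2.03 and ENO3 of muscle 1.38, 1.87 and 1.51 times background. A pyruvate kinase gene, listed as PKM2, had 11.4, 9.60 and 10.4 times background, and PKLR of liver and red cells was silent. Which isoform of the gene listed as PKM2 gave the signal was not tested. LDHA, a subunit of lactate dehydrogenase, had 75.9, 72.5 and 68.2 times background. LDHB, the other common subunit, had 33.4, 35.7 and 28.6 times background, and LDHC of testis was silent. SLC16A3, a lactate exporter, had 6.31, 10.1 and 9.30 times background and was lowest on replicate 1, while SLC16A1, another lactate carrier, was silent.

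PDHA1, a subunit of pyruvate dehydrogenase, had 18.8, 23.1 and 21.1 times background, and its testis counterpart PDHA2 was silent. TKT, transketolase of the pentose phosphate path, had 29.8, 28.6 and 27.3 times background. TALDO1, transaldolase of the same path, had 25.3, 25.7 and 19.9 times background. PCK2, the mitochondrial enzyme of glucose formation, had 4.54, 4.21 and 4.71 times background. FBP1, a phosphatase of that path, had 2.04, 2.88 and 2.23 times background. The liver and kidney genes G6PC and PCK1 were silent.

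**Figure D5:**
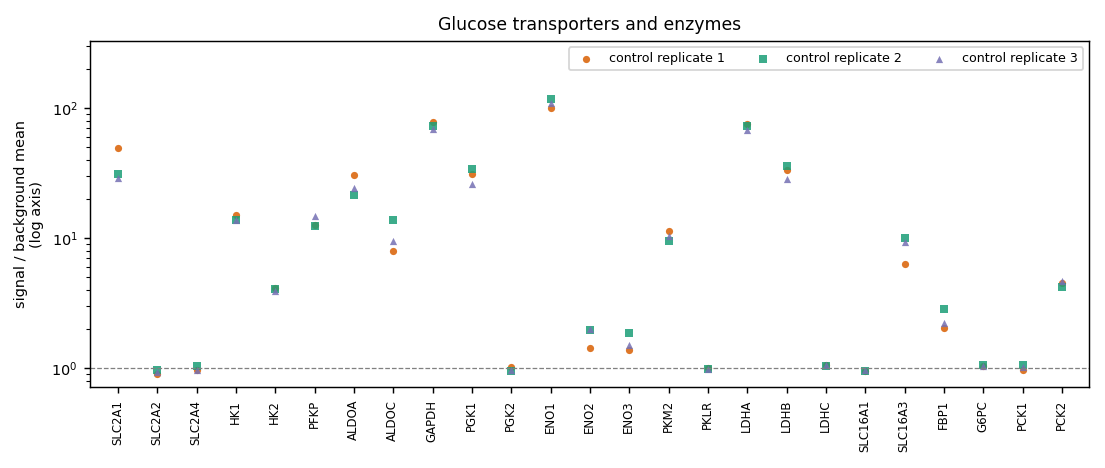
Signal over the mean background on a log axis is plotted for genes of glucose transport, glycolysis, lactate and glucose formation, each point 1 control array. SLC2A1, ALDOA, GAPDH, PGK1, ENO1, LDHA and LDHB stand above 20, and SLC2A2, PGK2, PKLR, LDHC and PCK1 lie at the dashed background line.

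Lipid and amino acid metabolism gave 19 detected genes of 39 (48.7%), beside 35.7% of all genes, with 7 above background by signal alone. FASN, fatty acid synthase, had 24.2, 17.5 and 16.1 times background. SCD, a desaturase, had 64.1, 46.3 and 47.1 times background. FABP5, the epidermal fatty acid carrier, had 34.4, 14.0 and 10.96 times background, and replicate 1 was the highest array. FABP1 of liver was silent.

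PHGDH, the first enzyme of serine synthesis, had 22.6, 32.4 and 26.0 times background. SHMT2, the mitochondrial enzyme that passes carbon from serine to folate, had 23.4, 22.1 and 25.0 times background. ASS1, which joins citrulline and aspartate, had 14.4, 11.6 and 14.7 times background by signal alone. CPS1, the first urea cycle enzyme of liver mitochondria, was detected at 5.84, 6.39 and 5.93 times background, alike on the 3 arrays. The urea cycle genes OTC, ASL and ARG1 were silent. ARG2, the mitochondrial arginase, had 1.83, 2.39 and 2.28 times background.

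Of 44 genes of xenobiotic metabolism 24 were detected (54.5%) and 14 were silent (31.8%), beside 35.7% and 47.7% of all genes. GSTP1, a glutathione transferase common in carcinomas, had 98.6, 115 and 102 times background, and GSTA1 of liver was silent. GPX2, a glutathione peroxidase of gut epithelium, had 51.0, 31.6 and 28.9 times background and was highest on replicate 1. AKR1C3, an aldo-keto reductase, had 23.2, 18.7 and 16.8 times background, but AKR1C genes are similar enough for probes to share signal. NQO1, a quinone reductase under NRF2, had 8.77, 9.08 and 7.38 times background. GCLM, a subunit of the enzyme that starts glutathione synthesis, had 11.8, 15.4 and 15.9 times background. TXNRD1, thioredoxin reductase, had 4.60, 5.49 and 5.59 times background.

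ALDH1A3, which makes retinoic acid, had 23.9, 50.4 and 50.8 times background and was lowest on replicate 1. ALDH1A1, with the same activity, stood near background at 1.13, 1.10 and 1.06. CYP1B1, a monooxygenase under AHR, had 6.402, 5.89 and 5.62 times background. CYP1A1, also under AHR, had 1.10, 1.19 and 1.18 and passed on some arrays. Hepatic enzymes, namely CYP2D6, CYP2E1, CYP3A4, ADH1A, ADH1B and ADH4, were silent. UGT2B7, a glucuronosyltransferase of liver, was detected at 2.04, 2.90 and 2.42 times background. ADH7, the alcohol dehydrogenase of upper digestive epithelium, had 3.05, 1.61 and 1.80 times background and was highest on replicate 1.

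HOX genes set position along the body axis. Of 39, 21 were detected (53.8%) and 8 were silent (20.5%), beside 35.7% and 47.7% of all genes. None exceeded 10 times background. By cluster the detected genes were 3 of 11 in HOXA, 5 of 10 in HOXB, 6 of 9 in HOXC and 7 of 9 in HOXD. A further 2 in HOXA and 1 in HOXC were above background by signal alone. Counts by cluster were not made at other settings. HOXC13, a factor of hair and nail, had 7.57, 7.94 and 8.31 times background. HOXB7 had 5.49, 5.28 and 5.81 times background. HOXA5 had 4.86, 5.39 and 4.32 times background. HOXD10 had 3.44, 4.49 and 4.32 and HOXD11 3.35, 5.35 and 3.79 times background. No array of the other detected HOX genes exceeded 3.06 times background, a value of HOXB5 on replicate 2. With a score above 0.99 required, 12 of the 39 HOX genes were detected, beside 10212 of all 34693 genes. By signal in place of the score 15 passed, beside 11673 of all genes. In both settings the HOX share was near that of all genes.

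Cancer-testis antigens, genes of the germ line that many tumours switch on, were silent in 25 of 31 cases, or 80.6% beside 47.7% of all genes. MAGEA6, the 1 member detected on all arrays, had 1.06, 1.09 and 1.06 times background, no clear distance from background. PRAME, CTAG1B, SSX1, SSX2 and SSX4 were silent.

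In antigen presentation 13 of 22 genes were detected (59.1%), beside 35.7% of all genes. HLA-B, a class I heavy chain, had 26.1, 69.3 and 62.1 times background. B2M, the class I light chain, had 67.2, 100.5 and 82.3 times background. TAP1, a peptide transporter, had 13.6, 26.3 and 20.3 times background. These 3 were lowest on replicate 1. HLA genes are alike in sequence, so their probes may share signal. Of 10 class II genes 4 were detected (40%) and 6 were silent, beside 35.7% and 47.7% of all genes. HLA-DRA, a class II alpha chain, had 1.63, 1.67 and 1.68 times background, while its partner HLA-DRB1, the invariant chain gene CD74 and CIITA, the class II activator, were silent.

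Single markers of other tissues gave a signal nonetheless. CD68, a lysosomal protein used as a macrophage marker, had 10.2, 12.46 and 12.02 times background. CD14, an endotoxin co-receptor, had 5.33, 4.10 and 3.56 times background, whereas PTPRC, LYZ and ITGAM were silent. NEFL, a neurofilament, had 1.82, 2.37 and 1.98 times background. TH, which makes the dopamine precursor, had 2.04, 2.56 and 2.65 times background, with SNAP25 and SYN1 of nerve endings silent. CDX2, an intestinal homeobox factor, had 1.15, 1.75 and 1.75 times background, and VIL1, CDX1 and LGALS4 of intestine were silent. AMY1A, a salivary amylase whose gene has close copies, had 2.23, 3.55 and 2.30 times background by signal alone.

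Of 15 housekeeping genes 13 were detected (86.7%), beside 35.7% of all genes, and 2, RPLP0 among them, were above background by signal alone. ACTB, beta-actin, had 114, 118 and 117 times background. HPRT1, an enzyme of purine salvage, had 21.6, 23.1 and 23.1 times background. GUSB, a lysosomal glucuronidase, had 10.6, 6.64 and 6.42 times background. The 3 arrays lay close together for ACTB and HPRT1, while replicate 1 was the highest for GUSB.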

How the data were processed

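Illumina arrays of the control cells were read from the deposited table of signal intensity values, not normalized and with background included, per the file headers; GenomeStudio 1.9.0 made it per the submitters' processing notes. The authors' detection columns are headed p-values, but they average 0.994 over the 1000 brightest and 0.037 over the 1000 dimmest genes of control replicate 1, so they were taken as a deposited score of 1 minus p. No source used here names the build or the annotation of the probes. There are 34694 genes with 1 line each, of which 1, listed at 0, was not used.

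The mean and SD of each array's background were inferred with limma 3.58.1 in R 4.3.3. The genes used were the 27647 (79.7%) with scores in whole multiples of the step, 1 in 770, on all 6 arrays. For the spread between arrays, signals were corrected by the normal-exponential model with an offset of 16, quantile normalized over all 6 arrays and put on the log2 scale. Estimation and calls were tested on simulated data, in which expressed genes lay well above background and every score was a whole multiple of the step. That test does not cover weak signals or genes with other scores. No test between samples was made, since there is 1 group. The number of arrays, 3, limits the precision.

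28 lists held 697 genes, 690 of them in the table, and 687 of these matched a RefSeq name. Members, lists and the rule for names were chosen with earlier results of these data known. The rule covers the list members and the 12 detected genes with the widest range, 6 highest and 6 lowest on replicate 1, provisional names left out. Genes in the plot of widest ranges beyond these were chosen after their values were seen. The alternatives tried were a score of 0.99, the signal in place of the score, 2 of 3 arrays, each replicate left out, other normalizations and the deposited value matrix of intensity, whose names had to be realigned. Sequences are those of RefSeq on GRCh38.p14. Values of some list members are not reported here.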

Additional observations from a re-analysis of the deposited data

How the results depend on the processing

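The count of 12388 detected genes was 10212 with a score above 0.99, 11673 by signal, 14514 on at least 2 of 3 arrays and 12986 to 13263 with a replicate left out. Counting either measure, a choice made after seeing the data, it was 13459. With a score above 0.99 the HOX genes fell to 12 detected, leukocyte markers to 2, and cancer-testis antigens and the gland and intestine markers to 0. By signal the count was 0 for cancer-testis antigens, 2 for leukocyte markers and 0 for endothelial markers. On at least 2 of 3 arrays it was 3 for endothelial, 1 for hepatocyte and 1 for melanocyte markers, the same as without replicate 1. With a replicate left out it ranged from 1 to 3, 0 to 1 and 0 to 1 in these lists. Gland and intestine markers rose to 2 with either measure. All other list counts stayed within 1.5 times of their value under these settings. The median SD was 0.0536 with the background taken from all listed genes and 0.117 to 0.178 with a replicate left out. Promoter shares were void in both settings. The ranges of the 12 widest genes kept within 1.5 times in 67 of 84 recalculations, and in 17 they did not, 12 of these without replicate 1. No paired analysis was possible because the control arrays are 1 group with 1 array for each replicate number and the results come from no test. Signals below about 1.2 times background cannot tell a weak gene from a silent one.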
